A study of Homo sapiens with 12 samples.

Results

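DUSP4, DUSP6, SPRY2, SPRY4, SPRED1, SPRED2, ETV4, ETV5, PHLDA1 and CCND1 are genes that ERK switches on, and they were examined as the output and feedback genes of the MAPK pathway in A375 cells, a human melanoma line with mutant BRAF. They were chosen by gene name, and all 10 were among the 29696 genes listed with expression values. Input RNA of A375 cells (genotype labelled ALKBH5 knockdown, shALKBH5) was compared with that of control cells (genotype labelled wild type, shCtrl in the labels and Scramble in the methods), both infected with pLKO.1 lentivirus. Each group had 3 input libraries and 3 m6A immunoprecipitation (IP) libraries made from poly(A) RNA. The sources used here do not say which of the ALKBH5 hairpins was sequenced. Both groups were 1 cell line, and no label says that libraries of a group came from separate cultures, so the p-values measure the spread between these libraries, which may be technical. ALKBH5 is a demethylase of m6A, the methyl mark on adenosines of mRNA, and its knockdown was the condition under study.

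In the MAPK pathway, growth factor receptors activate RAS, which activates RAF kinases, then MEK and then ERK. Mutant BRAF drives the same route without the receptor signal, and melanomas that carry it depend on ERK output. ERK induces its own inhibitors: the DUSP phosphatases take phosphate off ERK, and the Sprouty and SPRED proteins act on the route above it. Transcription factors such as ETV4 and ETV5 and the cell-cycle gene CCND1 carry the output onward.

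The direction of change split within the DUSP and ETV pairs, while both Sprouty genes rose and SPRED1 and SPRED2 fell. Of the 10 genes, 5 were higher and 5 were lower in the shALKBH5 libraries, and all of them passed the test (limma on log2(FPKM + 0.1), adjusted p under 0.05). Without shALKBH5 library 1, and likewise without shALKBH5 library 3, 6 passed, 4 higher and 2 lower. Over all 12985 genes tested, 61.0% passed, 34.7% higher and 26.2% lower, so a gene drawn from the table passed more often than not. After each library was rescaled by its median ratio, 3723 genes were higher and 3915 lower of 12958 tested, against 4509 and 3408 without rescaling. The values of all 10 genes did not overlap between the groups, which held for 67.0% of all tested genes. The median log2 fold change of the 10 genes was 0.05, beside 0.09 for all tested genes. DUSP4, SPRY4 and SPRY2 were the members with large changes, and the log2 fold changes of the other 7 lay between -0.31 and 0.32. An exact permutation test of each gene gave p = 0.1, the smallest that 3 against 3 libraries allow.

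Sequences near RefSeq starts of these genes are shown because ERK is known to act on transcription through ETS, AP-1 and CIC factors, and because some of the stretches lie under an m6A peak. RefSeq promoter windows (GRCh38.p14), from 250 bases before to 50 after a start, were found for 6 members in 9 windows. The starts include ones inside the gene span of the expression file, and those of the printed stretches of PHLDA1 and SPRED2 and of the SPRY2 stretch with GGACT are such internal starts. Capitals mark the match in each line, written 5′ to 3′ on the strand of the gene. The ETS core CCGGAA, searched on both strands, was in windows of PHLDA1 and SPRY2 and in 17.25% of all 35116 windows. The PHLDA1 match reads TTCCGG because it is on the other strand. Its stretch lies under the long PHLDA1 peak of the shCtrl list. In the shALKBH5 list, which divides this region, it lies in the gap between the peaks chr12:76031713-76031773 and chr12:76031893-76033662.
PHLDA1, chr12:76031848-76031877, minus strand: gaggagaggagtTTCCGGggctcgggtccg
SPRY2, chr13:80341251-80341280, minus strand: tccctgcctcctCCGGAAaggcgagggcgc

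The AP-1 site TGACTCA, searched on both strands, was in a window of SPRED2 and in 4.95% of all windows.
SPRED2, chr2:65366766-65366795, minus strand: taaccctcggaTGACTCAtccggtacaatg

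GGACT, a sequence context in which m6A is often placed, was searched on the strand of the gene in the 50 transcribed bases, and was in a window of SPRY2 and in 4.9% of all windows. It lay inside the 5′UTR peak of SPRY2 in both peak lists, which is described with the peaks.
SPRY2, chr13:80339638-80339667, minus strand: aaaggggaggggGGACTgggaaagagaaga

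The longer ETS site CCGGAAGT, which contains the core above, and the CIC octamer TGAATGAA, both searched on both strands, were in none of the 9 windows and in 4.14% and 1.65% of all windows. SPRY4 and DUSP6 had windows without a match to any of these motifs, as did SPRED1. A match describes letters in these windows and no binding was measured.

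The libraries were checked before the genes were read. ALKBH5 itself was at 3.39, 3.92 and 3.12 FPKM in the shALKBH5 libraries and at 19.3, 17.8 and 17.6 FPKM in the shCtrl libraries, a log2 fold change of -2.36 (SE 0.0887, n = 3 per group). FPKM is the number of fragments scaled to transcript length and to the mapped fragments of the library, so levels can be compared between genes, and no read counts were used, so the depth is unknown. Log values correlated at 0.981 to 0.984 within groups and 0.929 to 0.934 between groups, across genes, which are not independent replicates. The shCtrl library 1 was the lowest of its group for 8 of the 10 genes, and all 10 passed the test without it. The melanocyte factor SOX10 averaged 181 FPKM with shALKBH5 and 184 FPKM with shCtrl, whereas the pigment genes TYR, TYRP1 and DCT were at or below 0.187 FPKM in every library and TYR was at 0 in every shCtrl library. PMEL, below the level filter and not tested, averaged 0.611 ± 0.116 FPKM with shALKBH5 and 0.237 ± 0.0629 FPKM with shCtrl (SD, n = 3 each), without overlap. MITF, the lineage factor, rose from 0.777 to 1.26 FPKM, a log2 fold change of 0.63 (limma adjusted p = 0.0475), with libraries that overlapped between groups. The 4 measured markers of keratinocytes, fibroblasts and endothelium summed to 1.12 to 1.34 FPKM with shALKBH5 and 1.49 to 1.76 FPKM with shCtrl, and KRT14, the 1 of these that passed the test, averaged 0.369 and 0.961 FPKM and reached the level filter only through the shCtrl libraries. Of the 4 markers of dedifferentiated melanoma, 3 fell, of which SOX9 reached the filter only through the shCtrl libraries, and the sum of the 4 was 292 to 317 FPKM with shALKBH5 and 344 to 357 FPKM with shCtrl. NGFR moved most among them, from 34.7 to 5.66 FPKM, and the part of this state in the results below was not tested. These are bulk values, in which fewer cells of a kind and less RNA per cell cannot be told apart.

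**Figure D1:**
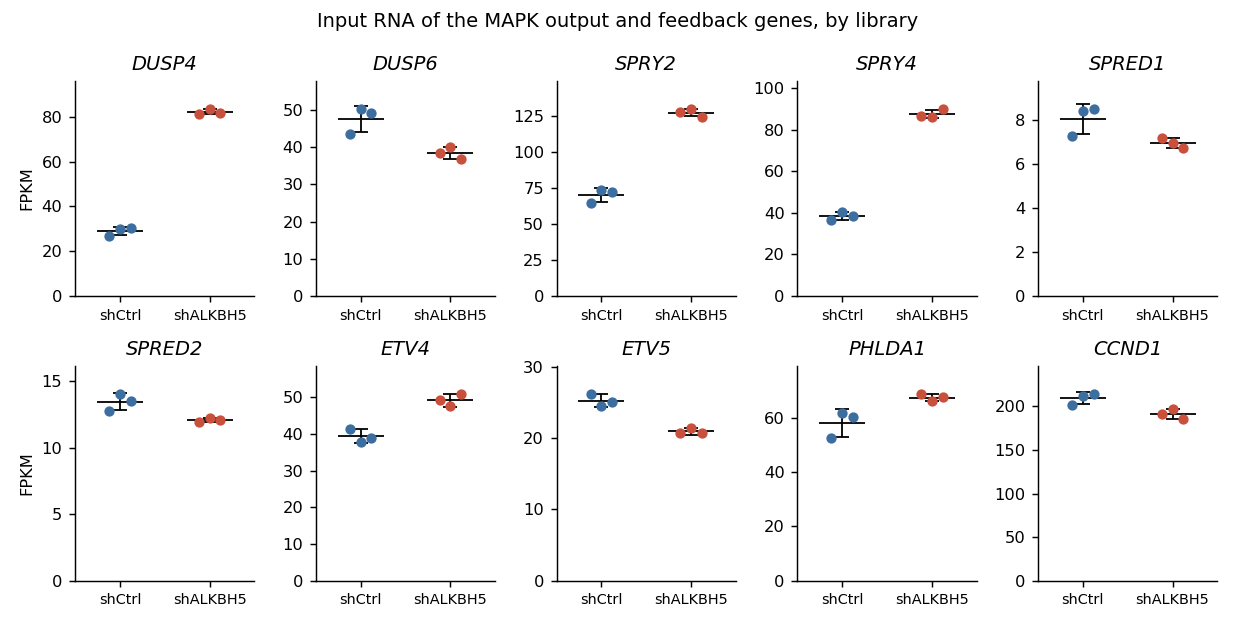
FPKM of the 10 genes in each input library (points), with the mean (long line) and SD (error bar) of 3 libraries per group, each panel with its own axis from 0. DUSP4, SPRY2 and SPRY4 stand far apart between the groups, and the other 7 genes separate by less, with no overlap.

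The phosphatases moved in opposite directions. DUSP4 is a nuclear phosphatase of ERK and related kinases, and DUSP6 is a cytoplasmic phosphatase that acts on ERK. DUSP4 (ENSG00000120875, chr8:29333064-29350684, minus strand) was at 81.4, 83.5 and 81.9 FPKM in the shALKBH5 libraries and at 27.0, 30.0 and 30.3 FPKM in the shCtrl libraries. Every shALKBH5 library was far above every control. The means were 82.2 ± 1.08 and 29.1 ± 1.83 FPKM (SD, n = 3 each), a ratio of 2.83, and the log2 fold change was 1.5 (SE 0.0514, limma adjusted p = 9.36e-07). Only 4.78% of tested genes had a larger absolute log2 fold change.

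DUSP6 (ENSG00000139318, chr12:89347235-89352501, minus strand) was at 38.4, 40.0 and 36.8 FPKM with shALKBH5 and at 43.5, 50.2 and 49.01 FPKM with shCtrl. The groups did not overlap, but the gap of the nearest libraries was narrow. Its log2 fold change was -0.31 (SE 0.0623, limma adjusted p = 0.00396), and 56.2% of tested genes had a larger absolute value. The DUSP4 to DUSP6 ratio of FPKM was therefore reversed: it was 2.12, 2.09 and 2.22 in the shALKBH5 libraries and 0.62, 0.599 and 0.618 in the shCtrl libraries. On the log2 scale the ratio differed by 1.81 between groups (exact permutation p = 0.1, the smallest that 3 against 3 libraries allow; adjusted p over the 4 pairs of relatives compared = 0.133).

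Both Sprouty genes rose, and by more than the other members except DUSP4. Sprouty proteins hold back signalling from receptors to RAS and RAF. SPRY2 (ENSG00000136158, chr13:80335976-80341126, minus strand) was at 128, 129.9 and 125 FPKM with shALKBH5 and at 64.8, 73.6 and 72.1 FPKM with shCtrl. The lowest shALKBH5 library was well above the highest control. The log2 fold change was 0.86 (SE 0.0536, limma adjusted p = 1.1e-05), a ratio of means of 1.82, and 16.1% of tested genes changed by more.

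SPRY4 (ENSG00000187678, chr5:142310427-142326455, minus strand) was at 86.7, 86.2 and 89.8 FPKM with shALKBH5 and at 36.5, 40.6 and 38.5 FPKM with shCtrl. Here too the groups lay far apart. The means were 87.6 ± 1.98 and 38.5 ± 2.06 FPKM (SD, n = 3 each), and the log2 fold change was 1.18 (SE 0.0475, limma adjusted p = 1.62e-06), with 8.61% of tested genes changing by more. SPRY2 stayed the more abundant of the pair, and the ratio of SPRY2 to SPRY4 was 1.46 ± 0.0622 with shALKBH5 and 1.82 ± 0.0473 with shCtrl (SD, n = 3 each). The ratios did not overlap between groups (exact permutation p = 0.1, adjusted p = 0.133).

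SPRED1 and SPRED2, relatives of the Sproutys that bring the RAS inhibitor neurofibromin to the membrane, were lower by small amounts. SPRED1 (ENSG00000166068, chr15:38252836-38357249, plus strand) was at 7.19, 6.94 and 6.74 FPKM with shALKBH5 and at 7.27, 8.40 and 8.49 FPKM with shCtrl. The highest shALKBH5 library and the lowest control nearly met. The log2 fold change was -0.20 (SE 0.0724, limma adjusted p = 0.0413).

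SPRED2 (ENSG00000198369, chr2:65310851-65432637, minus strand) was at 11.9, 12.2 and 12.1 FPKM with shALKBH5 and at 12.8, 14.05 and 13.5 FPKM with shCtrl. The fall was again small, with a log2 fold change of -0.15 (SE 0.0501, limma adjusted p = 0.0325), and of -0.23 (limma adjusted p = 0.00647) after rescaling by the median ratio. The absolute log2 fold change was larger in 69.8% of tested genes for SPRED1 and in 77.7% for SPRED2. Both calls were lost when any one of shALKBH5 libraries 1, 2 or 3 or shCtrl libraries 2 or 3 was left out, with limma adjusted p from 0.0651 to 0.134 for SPRED1 and 0.0713 to 0.103 for SPRED2. The SPRED1 to SPRED2 ratio overlapped between groups, at 0.575 ± 0.0236 and 0.598 ± 0.0286 (SD, n = 3 each, exact permutation p = 0.4).

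ETV4 and ETV5 are ETS transcription factors of the same subfamily, and they moved in opposite directions. ETV4 (ENSG00000175832, chr17:43527844-43579620, minus strand) was at 49.2, 47.5 and 51.0 FPKM with shALKBH5 and at 41.5, 37.7 and 39.0 FPKM with shCtrl. All shALKBH5 libraries were above all controls. The log2 fold change was 0.32 (SE 0.0489, limma adjusted p = 0.000947), and 54.6% of tested genes changed by more.

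ETV5 (ENSG00000244405, chr3:186046314-186110318, minus strand) was at 20.7, 21.4 and 20.6 FPKM with shALKBH5 and at 26.2, 24.4 and 25.1 FPKM with shCtrl. All shALKBH5 libraries were below all controls. Its log2 fold change was -0.27 (SE 0.0433, limma adjusted p = 0.00125), and 61.2% of tested genes changed by more. The ratio of ETV4 to ETV5 was 2.36 ± 0.129 with shALKBH5 and 1.56 ± 0.0216 with shCtrl (SD, n = 3 each), a difference of 0.59 on the log2 scale (exact permutation p = 0.1, adjusted p = 0.133).

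PHLDA1, a protein with a pleckstrin-like domain whose mRNA follows ERK activity, was somewhat higher, and CCND1, the cyclin D1 partner of CDK4 and CDK6, somewhat lower. PHLDA1 (ENSG00000139289, chr12:76025447-76033932, minus strand) was at 68.8, 66.0 and 67.5 FPKM with shALKBH5 and at 52.3, 61.6 and 60.1 FPKM with shCtrl. The control libraries spread more widely than the knockdown libraries, and the groups did not overlap. The log2 fold change was 0.22 (SE 0.0637, limma adjusted p = 0.0196). It was 0.14 (limma adjusted p = 0.0759) after each library was rescaled by its median ratio, and the call was also lost without shALKBH5 library 1 (limma adjusted p = 0.0629) or library 3 (limma adjusted p = 0.0516).

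CCND1 (ENSG00000110092, chr11:69641156-69654474, plus strand) was at 191, 197 and 186 FPKM with shALKBH5 and at 201, 211 and 214 FPKM with shCtrl. It was the most abundant of the 10 genes in both groups, and only 1.2% of tested genes had a higher mean. The log2 fold change was -0.13 (SE 0.0398, limma adjusted p = 0.0249), and 80.9% of tested genes changed by more. After rescaling by the median ratio it was -0.21 (limma adjusted p = 0.00829). The call was lost without shALKBH5 library 1 (limma adjusted p = 0.08), shALKBH5 library 3 (limma adjusted p = 0.0957) or shCtrl library 3 (limma adjusted p = 0.0891).

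**Figure D2:**
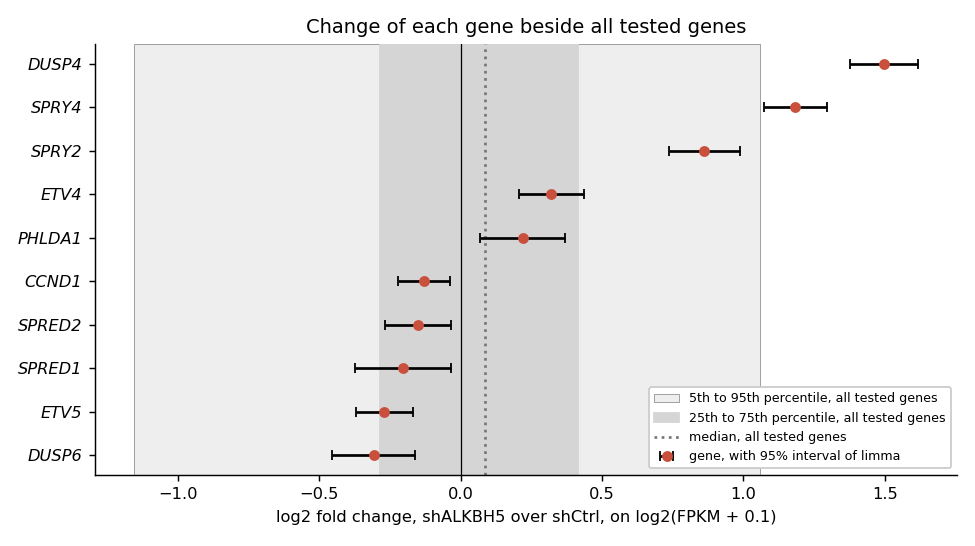
Log2 fold change of each gene, shALKBH5 over shCtrl, on log2(FPKM + 0.1), with its 95% interval from limma, beside the median and percentile bands of all tested genes. DUSP4 at 1.5 and SPRY4 at 1.18 lie beyond the 95th percentile of 1.06, SPRY2 at 0.86 lies between the 75th and the 95th, and DUSP6 at -0.31 lies just below the 25th percentile of -0.28.

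The order of the levels changed in the middle of the group. In shCtrl cells the means ran from CCND1 through SPRY2, PHLDA1, DUSP6, ETV4, SPRY4, DUSP4, ETV5 and SPRED2 down to SPRED1, and of these neighbours ETV4 and SPRY4 had overlapping libraries. In shALKBH5 cells the order was CCND1, SPRY2, SPRY4, DUSP4, PHLDA1, ETV4, DUSP6, ETV5, SPRED2 and SPRED1, with no overlap between neighbours. DUSP4 and SPRY4 thus passed PHLDA1, DUSP6 and ETV4. The 10 genes made up 0.304% to 0.309% of the summed FPKM in the shALKBH5 libraries and 0.234% to 0.26% in the shCtrl libraries.

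Among the 5715 tested genes whose mean reached 5 FPKM, the pattern most like that of DUSP6 over the 6 libraries was that of AC093591 (Pearson r = 0.999), followed by MAPRE1, FUCA1, VCL and ANKRD10 (r from 0.995 to 0.998), given as a description because the 6 points share 2 groups. CCND1 (r = 0.983), SPRED2 (r = 0.973) and SPRED1 (r = 0.95) were among the members like it, and ETV5 followed at 0.827. Of the 5715 genes, 71 had a higher r than CCND1, 129 than SPRED2, 268 than SPRED1 and 1273 than ETV5. The 5 genes that rose had negative values, from -0.557 for PHLDA1 to -0.988 for ETV4.

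The rest of the pathway was read from lists of its receptors, core kinases, inhibitors, transcription factors and targets, with means ± SD over 3 libraries per group. Receptor tyrosine kinases, which feed the pathway from the cell surface, were lower in 9 and higher in 1 of the 10 tested. Over all tested genes 26.2% were lower and 34.7% higher, the shares to set beside the counts of every list. The median log2 fold change of the receptors was -0.77, and the 1 that rose was ERBB3. AXL, which fell, is also among the dedifferentiated melanoma markers that fell. EGFR, 1 of the 9, reached the level filter only through the shCtrl libraries, and with a filter at 1 FPKM 8 of 9 were lower. FGFR3, a receptor of fibroblast growth factors, averaged 0.588 ± 0.0496 FPKM with shALKBH5 and 2.28 ± 0.208 FPKM with shCtrl, a log2 fold change of -1.79 (limma adjusted p = 1.43e-05), or -1.04 with a pseudocount of 1. PDGFRB, a receptor of platelet-derived growth factor, averaged 2.73 ± 0.130 and 7.25 ± 0.520 FPKM (SD, n = 3 each), a log2 fold change of -1.38 (limma adjusted p = 5.57e-06).

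The RAS, RAF, MEK and ERK cascade with its adaptors had a smaller median change than the receptors, at -0.21. Of its 15 genes, 2 rose, 6 fell and 7 did not pass, whereas 61.0% of all tested genes passed. After rescaling each library by its median ratio 1 rose, SHC1, and 9 fell. The risers without rescaling were SHC1 and BRAF, the latter narrowly, with a log2 fold change of 0.38 (limma adjusted p = 0.0449). SHC1 alone rose with the replicate number as a block and without the level filter. The same held without any one of shALKBH5 libraries 1, 2 or 3 or shCtrl library 3. SHC1, an adaptor between receptors and RAS, averaged 153 ± 1.11 FPKM with shALKBH5 and 97.4 ± 3.11 FPKM with shCtrl, a log2 fold change of 0.65 (limma adjusted p = 6.47e-06). NRAS, a RAS protein, averaged 8.01 ± 0.565 and 12.04 ± 1.31 FPKM, a log2 fold change of -0.58 (limma adjusted p = 0.00104).

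Other feedback genes and phosphatases were higher in 9, lower in 6 and not called in 3 of the 18 tested, with a median of 0.13. The 3 not called were ERRFI1, NF1 and RASA2. After rescaling by the median ratio 7 were higher and 6 lower of 17 tested. DUSP2, an inducible nuclear phosphatase, averaged 3.47 ± 0.209 FPKM with shALKBH5 and 0.784 ± 0.149 FPKM with shCtrl, a log2 fold change of 2.03 (limma adjusted p = 1.83e-05), or 1.33 with a pseudocount of 1. DUSP10, which acts mainly on p38 and JNK, averaged 21.9 ± 0.781 and 7.48 ± 0.260 FPKM, a log2 fold change of 1.54 (limma adjusted p = 7.39e-07). Grouped by family after the values were seen, 8 of the 10 MAP kinase phosphatases tested, DUSP4 included, were higher without rescaling, beside 34.7% of all tested genes, and DUSP6 and DUSP9 were lower. One of the 8, DUSP8, reached the level filter only through the shALKBH5 libraries. SPRY1 was higher along with SPRY2 and SPRY4, with a log2 fold change of 1.52, and SPRY3 was below the level filter. SPRED3 was higher, from 4.25 ± 0.0418 to 11.4 ± 0.154 FPKM (SD, n = 3 each), whereas SPRED1 and SPRED2 were lower.

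Transcription factors that read ERK activity, the ETS factors and the repressor CIC, were higher in 3, lower in 5 and not called in 2 of 10, with a median of -0.09. CIC, ERF and ETV3 rose, and ELK1, ELK3, ETS1, ETS2 and ETV6 fell. After rescaling by the median ratio 2 were higher and 5 lower, and ERF had the smallest rise, a log2 fold change of 0.15 (limma adjusted p = 0.0391). ELK1, an ETS factor phosphorylated by ERK, averaged 5.59 ± 0.0953 FPKM with shALKBH5 and 18.4 ± 1.17 FPKM with shCtrl, a log2 fold change of -1.70 (limma adjusted p = 8.94e-07). ETS2, also an ERK substrate, averaged 2.15 ± 0.0838 and 5.49 ± 0.139 FPKM, a log2 fold change of -1.31 (limma adjusted p = 3.73e-06).

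Other ERK-driven genes had no common direction, with 5 higher, 5 lower and 4 not called of 14 tested, and a median of 0.09. DUSP5, EPHA4, FOS, FOSL1 and HBEGF rose, and EGR1, EPHA2, IER3, KCNN4 and MAFF fell. EGR1, an immediate early transcription factor, averaged 2.47 ± 0.178 FPKM with shALKBH5 and 8.01 ± 0.130 FPKM with shCtrl, a log2 fold change of -1.66 (limma adjusted p = 1.78e-06). HBEGF, a ligand of the EGF receptor, averaged 4.82 ± 0.460 and 2.17 ± 0.106 FPKM, a log2 fold change of 1.11 (limma adjusted p = 3.5e-05). In a list of CCND3, CDK4, CDK6, CDK inhibitors and RB1, 2 were higher, 3 lower and 3 not called of 8 tested, with a median of -0.06. The inhibitors CDKN1A and CDKN1B rose, and CDK6, CDKN2C and CDKN2D fell. CDK4 and CDK6 are the kinases that cyclin D1 activates. CDK4 averaged 98.5 ± 1.14 FPKM with shALKBH5 and 97.7 ± 5.8 FPKM with shCtrl and was not called. CDK6, much less abundant, averaged 1.91 ± 0.274 FPKM with shALKBH5 and 7.15 ± 1.45 FPKM with shCtrl, a log2 fold change of -1.84 (limma adjusted p = 5.49e-05). CDKN2C, an inhibitor of CDK4 and CDK6, averaged 5.25 ± 0.194 and 15.9 ± 0.716 FPKM, a log2 fold change of -1.58 (limma adjusted p = 1.01e-06).

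**Figure D3:**
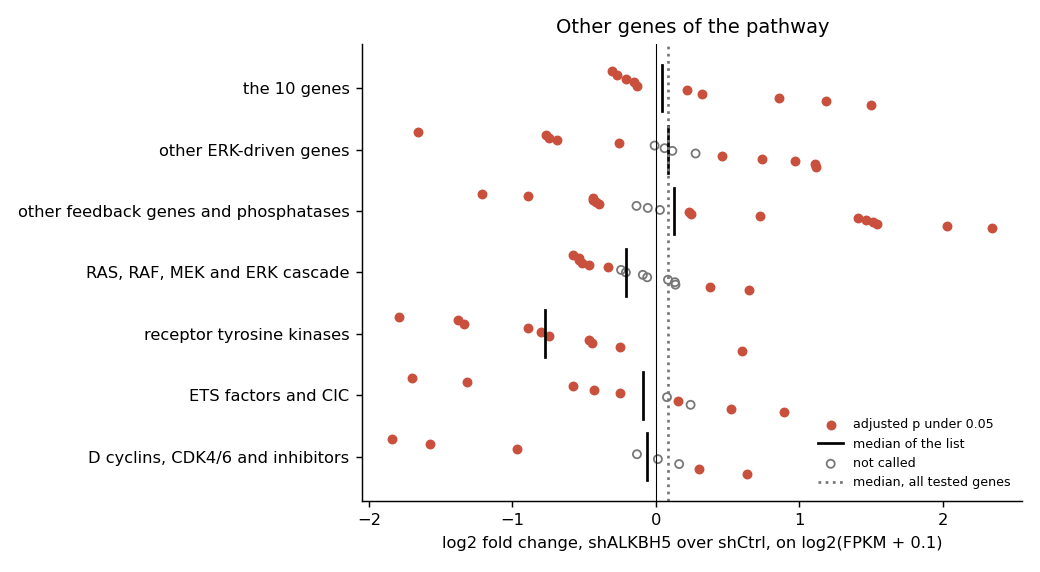
Log2 fold change, shALKBH5 over shCtrl, of each tested gene in the 10 genes and in 6 pathway lists (filled points passed at adjusted p under 0.05, open points did not), with the median of each list as a bar and of all tested genes as a dotted line. The receptors sit mostly left of 0, with a median of -0.77, and the other lists have medians from -0.21 to 0.13.

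MeRIP-Seq precipitates fragmented mRNA with an antibody against m6A, and a peak is a stretch where IP exceeds input. Peaks were available as 1 pooled list for shALKBH5 and 1 for shCtrl, and the peak values therefore have no replicate check. The 10 genes held 30 of the 46039 peaks in the shALKBH5 list and 28 of the 44304 peaks in the shCtrl list, and each gene had at least 1 peak in both lists. Of these, 27 of 30 (90%) and 26 of 28 (92.9%) overlapped a peak of the other list by at least 1 base on the same strand, beside 78.1% and 81.3% of all peaks. The members' peaks had a median fold enrichment of 3.76 with shALKBH5 and 4.12 with shCtrl, beside 5.31 and 5.25 for all peaks.

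By the annotation in the lists, 18 of 30 peaks (60%, 95% Wilson interval 42.3% to 75.4%) and 18 of 28 (64.3%, 45.8% to 79.3%) were in a 3′UTR, beside 45.5% and 46.2% of all peaks, and the intervals cover counting error only. In a 5′UTR were 9 of 30 (30%) and 7 of 28 (25%), beside 16.6% and 16.98% of all peaks. Peaks of 1 gene share their transcript, so these shares are descriptions.

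The peaks of DUSP4, DUSP6, SPRY2 and SPRY4 with the lowest p of the authors were annotated to the 3′UTR. In the shALKBH5 list, ordered by this p over all peaks, the 3′UTR peak of SPRY2 (chr13:80336749-80339331) was at place 27, that of DUSP4 (chr8:29336087-29337284) at 38 and that of SPRY4 (chr5:142313208-142315332) at 41. The 3′UTR peak of DUSP6 was at place 265. By fold enrichment these peaks were not near the top of that list. Fold was higher in 48% of its peaks than for SPRY2, 32.9% for DUSP4, 39.8% for SPRY4 and 49.1% for DUSP6. In the shCtrl list, ordered by its own p, the 3′UTR peak of SPRY2 was at place 68, that of DUSP6 at 127, the longer DUSP4 peak described next at 200 and that of SPRY4 at 202. Places describe each list on its own and were not compared between the lists. Fold enrichment at these peaks was 5.55 and 5.80 for SPRY2 and 6.82 and 7.19 for SPRY4, shALKBH5 first.

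The DUSP4 region was divided differently in the lists. The shCtrl list held 1 peak of 9359 bases (chr8:29336116-29345474) at a fold enrichment of 9.82, and the shALKBH5 list divided this stretch into a 3′UTR peak of 1198 bases at 7.37 and a weaker peak of 8072 bases at 1.72. PHLDA1 was alike, with 1 peak of 3837 bases at 11.7 in the shCtrl list and peaks of 1770 bases at 15.2, 61 bases at 2.26 and 2008 bases at 5.05 over the same stretch in the shALKBH5 list. DUSP6 and SPRED1 were divided the other way. DUSP6 had 1 peak of 3832 bases at 5.5 in the shALKBH5 list and peaks of 3476 bases at 6.06 and 211 bases at 1.48 in the shCtrl list. The strongest SPRED1 peak in the shALKBH5 list had 25586 bases, introns included, at 7.4, and the shCtrl list held peaks of 360 bases at 4.69 and 11765 bases at 8.12 within or beside that stretch. A fold enrichment over a merged span cannot be set against that of its parts.

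**Figure D4:**
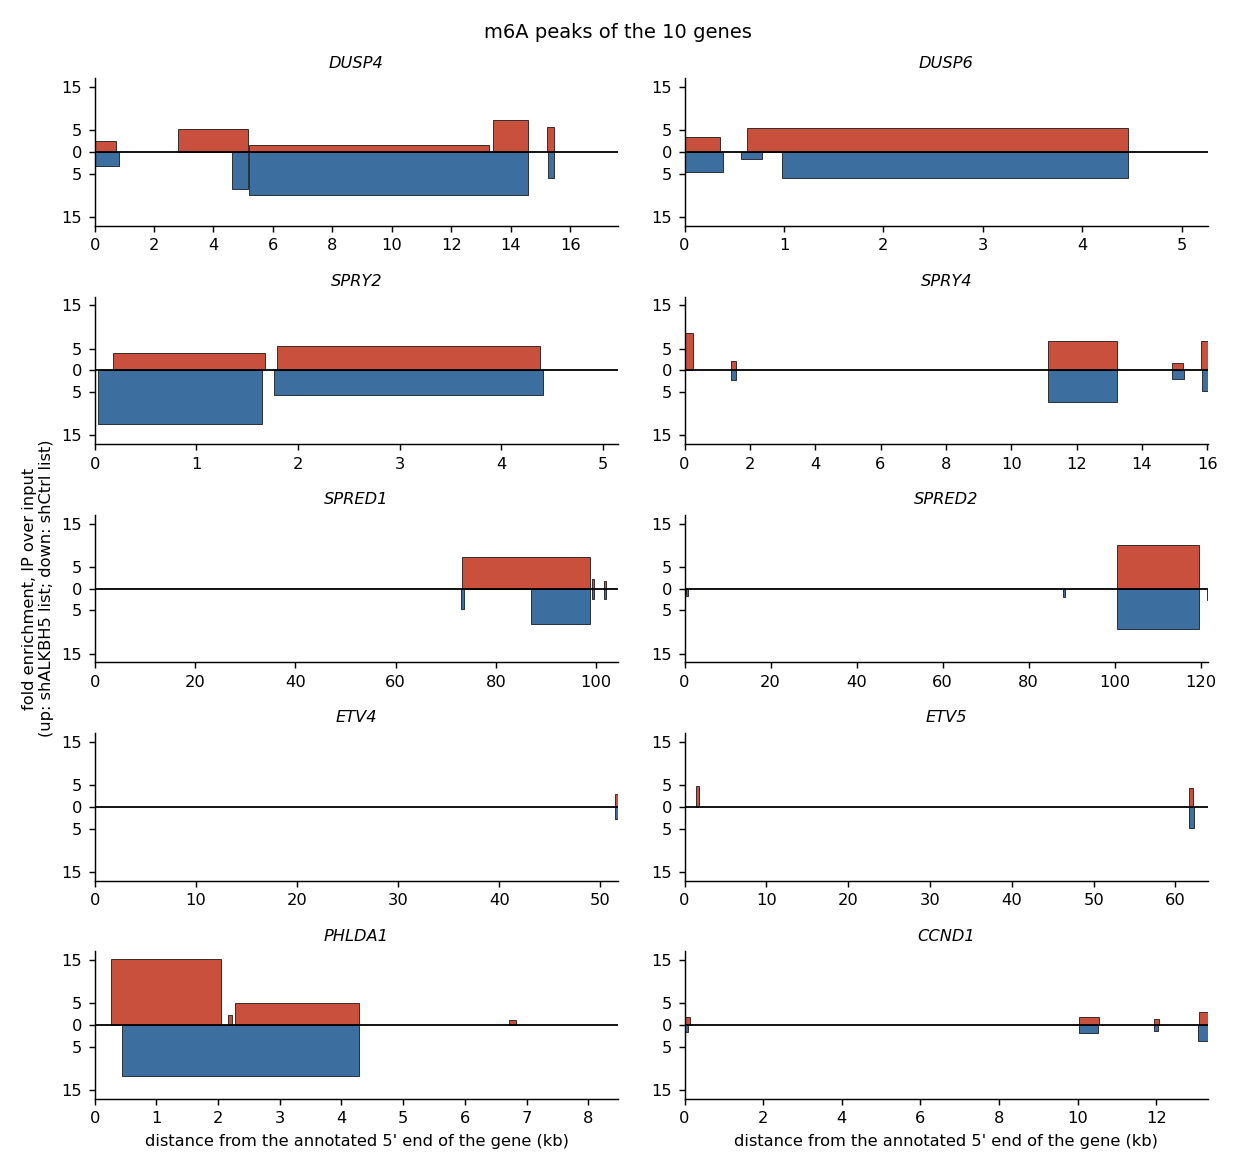
Peaks of the 10 genes by distance from the annotated 5′ end (kb), with fold enrichment of IP over input drawn upward for the shALKBH5 list and downward for the shCtrl list; a bar spans a peak from start to end, introns included. The same positions are marked in both lists for most peaks, while DUSP4, PHLDA1, DUSP6 and SPRED1 are divided differently.

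In 20 cases a peak of one list matched exactly 1 peak of the other, and fold enrichment was lower with shALKBH5 in 14 and higher in 6, with a median log2 ratio of -0.08. Among 23026 such pairs over all peaks 12351 (53.6%) were lower and 10548 higher, with a median of -0.04, and the share among the members was 70%. The 5′UTR peak of SPRY2 had the largest difference, at 3.96 with shALKBH5 (chr13:80339450-80340948) and 12.4 with shCtrl (chr13:80339480-80341096), a log2 ratio of -1.65. Its log10 p was -103 and -96.7, and SPRY2 input RNA averaged 127 and 70.2 FPKM, shALKBH5 first. The peak spans 1499 and 1617 bases and holds the GGACT shown above, and a link of that sequence to the difference was not tested. The 5′UTR peaks of DUSP4 were at 2.49 and 3.31 at the start of the gene and at 5.25 and 8.43 farther in, the latter of 2345 and 540 bases. The 5′UTR peak of DUSP6 was at 3.56 and 4.60. Among the matched 5′UTR peaks only that of CCND1 was higher with shALKBH5, at 1.85 and 1.51, and that of SPRY4 was at 2.12 and 2.33. The 5′UTR peaks of PHLDA1, ETV5 and SPRED2 had no such match and are outside this comparison.

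Among the 3′UTR peaks the values were closer. ETV4 had 1 peak, of identical span in both lists (chr17:43527844-43528172), at 2.89 and 2.69. The 3′UTR peak of ETV5 was at 4.36 and 4.79, and the one at the end of CCND1 was at 3.04 and 3.65. SPRY4 had the largest increase, at the peak that ends the gene, 6.74 and 4.85. The peak of 19044 bases in SPRED2, which spans introns, was at 10.0 and 9.43. Beside its long peaks, SPRED1 had a peak of 211 bases at 2.23 and of 121 bases at 2.37 in the 3′UTR, and one beyond it at 1.84 and 2.46.

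**Figure D5:**
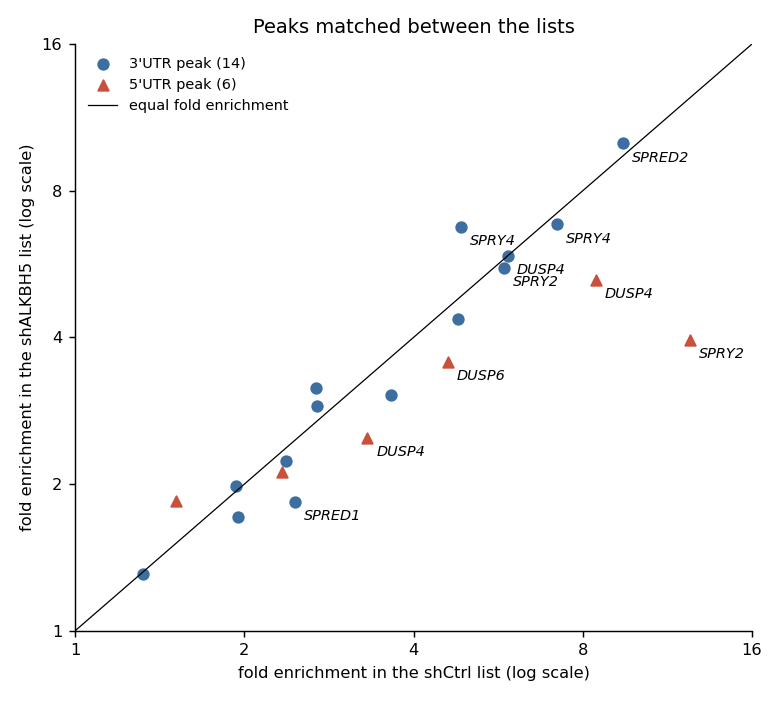
Fold enrichment of the 20 matched peaks in the shALKBH5 list (vertical, log scale) against the shCtrl list (horizontal, log scale), by annotated region, with the line of equal values. The 5′UTR peak of SPRY2 lies farthest from the line, at 3.96 and 12.4, and most 3′UTR peaks lie near it.

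A few peaks were found in 1 list only. In the shALKBH5 list these were a 5′UTR peak of ETV5 at a fold of 4.9 (log10 FDR -0.685), a PHLDA1 peak of 121 bases at 1.24, and a peak without an annotated region at the start of SPRY4 at 8.57 (log10 FDR -1.31). In the shCtrl list they were SPRED2 peaks of 60 bases at 1.88 and 91 bases at 1.64. None of the 5 met a stricter requirement, a fold of 2 or more with an FDR no higher than 0.01. A further table of peaks compared between the groups held 6513 rows, of which 11 were in 6 of the 10 genes, with 3 in DUSP4, 2 each in CCND1, DUSP6 and SPRED2, and 1 each in PHLDA1 and SPRY2, and none in SPRY4, SPRED1, ETV4 or ETV5.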

How the data were processed

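Groups came from the sample labels, with 3 input libraries each. Expression values are the FPKM that the authors deposited for every library, without counts, so depth and strand setting are unknown. The labels' processing notes name mm10, whereas 99.9% of 21699 matched gene symbols overlap their GRCh38.p14 locus, and positions are given as in the files. The study's methods name an R package for quantifying transcripts and testing genes. The aligner, read counter and peak caller are not given in the sources used here. Peaks came as 1 list a group, in which the authors give each peak a fold enrichment (a ratio of IP over input) and log10 p and FDR, treated as a score. Peak starts were made 1-based. Columns of the authors' own comparisons (fold changes, p-values, FDR and calls for genes and peaks) were not used. Of the table of compared peaks only positions and regions were used.

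All 12985 genes whose mean over the input libraries reached 0.5 FPKM were fitted with limma 3.58.1 in R 4.3.3 (lmFit, eBayes with trend) on log2(FPKM + 0.1). The test was two-sided, and p-values were adjusted over all of them by Benjamini-Hochberg. Fold changes on this scale understate low genes. The fit was also run on simulated data in which only a small share of genes changed, unlike here, so that run does not check these calls. Ratios of relatives were tested by exact two-sided permutation. Other steps used Python 3.11.15, pandas 2.3.3, numpy 2.4.6, scipy 1.17.1 and matplotlib 3.10.9. Low FPKM values showed no steps from which reads could be recovered. At most 0.123% of values were identical between libraries, and each was counted as 1 replicate.

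The members and lists were chosen with earlier results of these data known. The text names the members and ALKBH5. From each list it names the 2 called genes of largest absolute log2 fold change with a mean of at least 1 FPKM. It also names the 5 genes most like DUSP6, the markers and the members' peaks. Other list genes, among them SPRY1, SPRY3, SPRED3, DUSP8 and DUSP9, were chosen after their values were seen. CCND2, EREG, MLANA, KRT5 and PTPRC were not analysed here. The alternatives were pseudocounts of 1 and 0.01, no level filter, a filter at 1 FPKM, rescaling by median ratio, no trend, a replicate block, leaving out each library, stricter peaks and a reciprocal overlap of 50%.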

Additional observations from a re-analysis of the deposited data

How the results depend on the processing

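DUSP4, DUSP6, SPRY2, SPRY4, ETV4 and ETV5 passed the limma test under all 13 expression alternatives, the other 4 members lost the call under some, and none of the 10 changed direction. The count of members called ranged from 6 to 10 when 1 library was left out, with 6 (4 higher, 2 lower) without shALKBH5 library 1 and also without shALKBH5 library 3, and the cause was not tested. Without the level filter 7 members were called, without the eBayes trend 7, and after rescaling 9. Rescaling moved the median of all tested genes from 0.09 to 0.01.

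With the replicate number as a block, 7271 genes and 7 members were called. SPRED1 (limma adjusted p = 0.0816), SPRED2 (0.0639) and CCND1 (0.0611) lost the call. Deviations of same-numbered libraries from their group means correlated at 0.018, -0.046 and 0.059, so no shared effect of the number was seen. These values cannot show whether same-numbered libraries were prepared as pairs.

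Under a reciprocal overlap of 50%, 22 of 30 and 22 of 28 member peaks were shared, and of stricter peaks 21 of 21 and 20 of 21. With 3 libraries per group, unknown depth and pooled peak lists, small differences such as those of SPRED1, SPRED2, PHLDA1 and CCND1 are the least certain.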
